A study of Mus musculus with 16 samples.

Results

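The comparison described here set the Supraspinatus tendon against the Achilles tendon of C57BL/6J mice, by RNA sequencing of 4 libraries per tendon. The supraspinatus tendon joins a rotator cuff muscle of the shoulder to the humerus, and the Achilles tendon links the muscles of the calf with the heel bone. The members were the 8 libraries labelled Supraspinatus or Achilles of 16 in all, and the other 8 came from forepaw flexor and patellar tendons. All 8 were total RNA from whole tendons of the same strain, with no treatment, genotype change or injury given in the labels. The sources used here do not give age, sex or the number of animals pooled in a library. Libraries of both tendons carry mouse numbers 1 to 4, but the labels do not say that equal numbers mark 1 animal, nor that libraries came from separate animals. The p-values therefore measure the spread between these libraries, which may in part be technical.

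The forelimb and hindlimb of a mouse are laid out by different transcription factors. Tbx5 starts the forelimb, Pitx1, Tbx4 and Isl1 act in the hindlimb, and the Hox genes, which lie in 4 clusters in the order of their expression along the body, set position along the trunk and from shoulder or hip to the digits. Adult fibroblasts and tendon cells keep part of this positional expression. Tendons are made mainly of type I collagen laid down by cells that depend on the transcription factors Scx and Mkx, and end in muscle on one side and in a fibrocartilage-to-bone insertion on the other, so that a dissected tendon may carry RNA of all 3 tissues. Muscle fibres are slow or fast according to which isoform of each contractile protein they make.

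Each Supraspinatus library held 86898889 to 107805065 gene counts and each Achilles library held 84414005 to 97180849. Genes with at least 1 count numbered 28834 to 29577 in Supraspinatus and 30491 to 31416 in Achilles. Correlations of log2 CPM, counts scaled by library size, between libraries of 1 tendon were 0.977 to 0.987 in Supraspinatus and 0.972 to 0.99 in Achilles, and the first principal component, with 69.9% of the variance, separated both tendons. Achilles replicate 3 stood apart on the second component, with 8.2% of the variance. That library held 14.8% of its counts in 58 skeletal muscle fibre genes, where the other 3 Achilles libraries held 7.87% to 9.11%, and results that turn on it are also given without it. Both groups expressed the defining tendon genes: Tnmd, a tenocyte membrane protein, was present at 75.1 to 257 CPM against 119 to 256 CPM, Mkx at 18.6 to 46.1 CPM against 28.3 to 58.9 CPM and Col1a1, the main collagen chain, at 1811 to 10060 CPM against 2546 to 7879 CPM, with Supraspinatus given first.

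Of 21732 genes tested with edgeR, 10152 (46.7%) differed at an adjusted p under 0.05, 4842 (22.3%) higher and 5310 (24.4%) lower in Supraspinatus than in Achilles. CPM values of both groups did not overlap for 9449 genes (43.5%), and the median log2 fold change of all tested genes was -0.039. A share of called genes in any list is to be read against these percentages. Fold changes are log2, Supraspinatus minus Achilles, ± the standard error of the fit, with n = 4 libraries a side. When the test asked for a change of more than 2-fold, 2345 genes passed, 868 higher and 1477 lower. Of the genes past the threshold with a mean of at least 10 CPM and groups that did not overlap, leaving out markers of other cell types, Igfn1, Odf3l2, Mss51, Tbx5, Rspo1, Lrtm2, Mstn, Myhas, Mafa, Shisa2, Nos1 and Padi2 had the 12 largest positive changes, from 7.41 for Igfn1 to 3.83 for Padi2. Chil1, Sln, P2rx1, Nnat, Meltf, Spp1, C7, Kcna1, Frzb, Sfrp5 and Susd5 were among the 12 with the largest negative ones, from -7.73 for Chil1 to -5.37 for Susd5.

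Several of these 24 genes belong to muscle. In bulk samples such as these, fewer cells of a type and less RNA per cell cannot be told apart. Igfn1, a protein of the muscle Z-disc, had 53.2, 25.1, 99 and 63.5 CPM in Supraspinatus and 0.0696, 0.548, 0.676 and 0.127 CPM in Achilles. Its Supraspinatus values were the more variable, and the lowest of them was above the highest Achilles value (log2 fold change 7.41 ± 0.70, adjusted p = 4.97e-05). Mss51, a mitochondrial regulator of muscle metabolism that lies downstream of myostatin signalling, had 215, 159, 433 and 298 CPM in Supraspinatus and 2.29, 2.2, 4.89 and 3.77 CPM in Achilles (log2 fold change 6.39 ± 0.43, adjusted p = 9.65e-06). Nos1, which makes nitric oxide at the muscle membrane, was at 126 to 256 CPM against 8.36 to 21.6 CPM. Sln, sarcolipin, which slows the calcium pump of the sarcoplasmic reticulum, had 1.36, 1.04, 0.464 and 0.486 CPM in Supraspinatus and 197, 109.5, 254 and 118 CPM in Achilles. It was close to undetected in Supraspinatus relative to Achilles (log2 fold change -7.66 ± 0.48, adjusted p = 7.74e-06). Nnat, neuronatin, a small membrane protein imprinted in mouse, had 1.25, 5.69, 2.17 and 1.58 CPM in Supraspinatus and 450, 444, 251 and 679 CPM in Achilles (log2 fold change -7.42 ± 0.60, adjusted p = 2.46e-05). Chil1, a secreted chitinase-like protein, stood at 0.191 to 0.316 CPM against 39.3 to 75.7 CPM, and its fold change of -7.73 ± 0.28 had a small error for its size. Nnat had a log2 fold change of -8.09 without Supraspinatus replicate 2.

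Forelimb and hindlimb factors differed between both tendons, though not all in the direction of the limb they are known for. Tbx5, the T-box factor that starts the forelimb (ENSMUSG00000018263, chr5:119832668-119885219, plus strand, GRCm38), had 18.3, 18.3, 19.3 and 23.7 CPM in Supraspinatus and 0.457, 0.140, 0.242 and 0.419 CPM in Achilles. All 4 Supraspinatus libraries were above all Achilles libraries and lay within a narrow range (log2 fold change 5.97 ± 0.33, adjusted p = 4.43e-06). Isl1, a homeodomain factor of the early hindlimb (chr13:116298281-116309689, minus strand), had 0, 0, 0.0119 and 0.0113 CPM in Supraspinatus and 7.49, 15.7, 6.06 and 11.2 CPM in Achilles. Supraspinatus libraries held 2 Isl1 counts in all and Achilles libraries 4157, a depth-adjusted Achilles over Supraspinatus ratio of 1753 with a 95% exact interval of 485 to 14480 that covers counting error only. Hoxc11, expressed in the hindlimb and the posterior trunk, had no count in any Supraspinatus library and 1287 counts over the Achilles libraries. Against a floor of 3 counts over the whole Supraspinatus group it was at least 362-fold lower in Supraspinatus, and the 95% exact interval of the ratio, computed as for Isl1, starts at 294. Hoxc10, another posterior Hox gene, had 0.0736, 0, 0.298 and 0.0339 CPM in Supraspinatus and 13, 14.3, 19.1 and 13.8 CPM in Achilles (log2 fold change -7.2 ± 0.64, adjusted p = 3.79e-05). Hoxc10 had a log2 fold change of -8.58 without Supraspinatus replicate 3.

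Tbx4, the hindlimb counterpart of Tbx5, had 5.11, 4.29, 3.74 and 3.52 CPM in Supraspinatus and 13.3, 19.3, 9.33 and 12.6 CPM in Achilles. It was lower in Supraspinatus but clearly present there (log2 fold change -1.71 ± 0.22, adjusted p = 0.000305). Pitx1, the factor that starts the hindlimb programme, had 12.7, 13.8, 9.51 and 12.3 CPM in Supraspinatus and 16.3, 31.1, 11.6 and 18.2 CPM in Achilles. These ranges overlapped and Pitx1 did not pass the threshold (log2 fold change -0.67 ± 0.27, adjusted p = 0.0639), which does not show that the levels are alike. The list of 6 hindlimb genes had 4 lower and 1 higher in Supraspinatus, and 1 was not called. The higher member is not among the hindlimb genes described above, which were lower or not called. The list of 8 forelimb genes had 3 higher (Tbx5, Hoxc5 and Hoxc6) and 2 lower (Hoxc8 and Hand2). Hand2, a posterior limb bud factor upstream of sonic hedgehog, was at 0.0526 to 0.357 CPM against 1.4 to 3.4 CPM (log2 fold change -3.63 ± 0.51, adjusted p = 0.00046). Hoxc8 was at 0.0736 to 0.238 CPM against 2.27 to 2.83 CPM (log2 fold change -4.1 ± 0.33, adjusted p = 2.19e-05), and Hoxb5, Hoxb6 and Hoxc4 did not pass the threshold (adjusted p = 0.0954, 0.201 and 0.226). Pitx1 passed the threshold without Achilles replicate 3 (adjusted p = 0.0148). Pitx1 passed the threshold among genes with a mean of at least 5 CPM and by DESeq2 (adjusted p = 0.0428 to 0.0455).

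**Figure D1:**
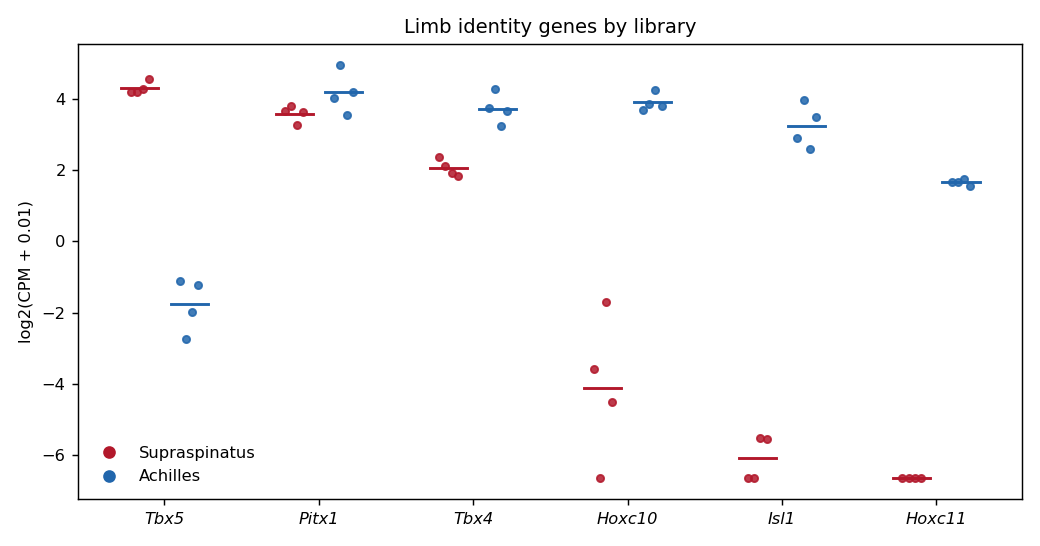
CPM of 6 limb identity genes in each library, as log2(CPM + 0.01), with Supraspinatus (red) left of Achilles (blue); points are the 4 libraries of a tendon and bars their means. Tbx5 points of Supraspinatus lie above those of Achilles, Pitx1 points overlap, and Hoxc11 is at 0 counts in all 4 Supraspinatus libraries, which is the bottom of the axis.

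Across the Hox clusters the direction of the difference followed the paralog number, which runs from the anterior (3′) to the posterior (5′) end of a cluster. Of 31 Hox genes tested, 13 were higher and 11 lower in Supraspinatus. When the genes were divided by paralog number, a division made after their values were seen, 8 of 12 genes of paralogs 1 to 5 were higher and 0 were lower, 4 of 7 of paralogs 6 to 8 were higher and 2 lower, 1 of 4 of paralog 9 was higher and 2 lower, and 0 of 8 of paralogs 10 to 13 were higher and 7 lower. The 4 clusters differed in where the sign changed. In Hoxa, Hoxa2, Hoxa3, Hoxa5, Hoxa6 and Hoxa7 were higher with log2 fold changes of 2.67 ± 0.35, 1.23 ± 0.23, 2.35 ± 0.25, 1.33 ± 0.28 and 1.21 ± 0.15. Hoxa10 was only slightly lower (-0.45 ± 0.12), at 22.8 to 25.5 CPM against 28.1 to 38.9 CPM, whereas Hoxa11, which patterns the forearm and lower leg, was far lower (log2 fold change -5.37 ± 0.41, adjusted p = 1.72e-05). Hoxa13, a gene of the most distal limb, had a log2 fold change of -3.07 ± 0.55, and Hoxa4 and Hoxa9 did not pass the threshold (adjusted p = 0.247 and 0.308). Hoxa13 had a log2 fold change of -4.1 without Supraspinatus replicate 2. Hoxa10 was not past the threshold in a fit of all 16 libraries (adjusted p = 0.0561).

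In Hoxb, Hoxb2, Hoxb3 and Hoxb4 were higher (1.45 ± 0.27, 2.28 ± 0.47 and 1.5 ± 0.30) and Hoxb7 and Hoxb9 were lower (-1.99 ± 0.26 and -6.4 ± 0.65). All Hoxb genes were at low levels, and Hoxb9 stood at 0 to 0.0565 CPM against 1.04 to 2.08 CPM. In Hoxc the sign changed between the neighbouring genes Hoxc6 and Hoxc8. Hoxc5 and Hoxc6 had log2 fold changes of 1.71 ± 0.22 and 1.05 ± 0.16, against -4.1 ± 0.33 for Hoxc8, -5.64 ± 0.55 for Hoxc9 and -7.2 ± 0.64 for Hoxc10. In Hoxd, Hoxd3, Hoxd8 and Hoxd9 were higher (2.18 ± 0.47, 0.86 ± 0.17 and 0.75 ± 0.20). Hoxd10 and Hoxd11 were lower (-2.3 ± 0.33 and -4.29 ± 0.69), and Hoxd13, at 0.0113 to 0.226 CPM against 0.0202 to 0.199 CPM, did not pass the threshold (adjusted p = 0.847). Median log2 fold changes were 0.51 in Hoxa, 0.53 in Hoxb, -4.1 in Hoxc and 0.49 in Hoxd, against -0.039 over all genes. The sources used here do not say whether reads were counted by strand, so reads of a Hox gene and of an antisense transcript cannot be told apart. Hoxb9 had a log2 fold change of -8.23 without Supraspinatus replicate 4, Hoxc9 one of -6.48 without Supraspinatus replicate 3, Hoxd3 one of 2.81 without Achilles replicate 1, Hoxd11 one of -5.71 without Supraspinatus replicate 3.

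**Figure D2:**
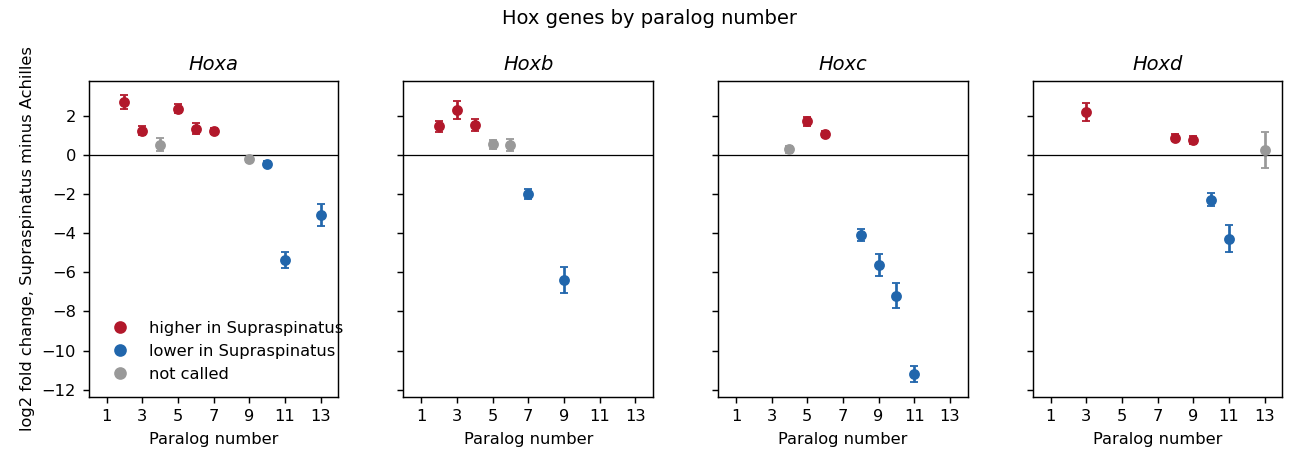
Log2 fold change, Supraspinatus minus Achilles, of the Hox genes of paralog 2 and up against paralog number, 1 panel per cluster, with bars for the standard error; red was higher and blue lower in Supraspinatus at an adjusted p under 0.05, and grey was not called. Most genes of low paralog number lie above 0 and paralogs 10 and 11 lie below it; the Hoxc11 point is a fitted value against 0 Supraspinatus counts and depends on the fit's prior count.

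Other regulators of limb axes also differed: 13 of 27 tested members were higher in Supraspinatus and 9 were lower, with a median of 0.82. Among those higher were Lhx9 (4.7 ± 0.40), a LIM homeodomain factor of limb outgrowth, Sall4 (2.64 ± 0.35), a zinc finger factor of the limb bud, and Lmx1b (2.55 ± 0.53), which marks the dorsal limb. Tbx15, a T-box factor with a role in the shoulder blade and in fast muscle, had 389, 362, 392 and 406 CPM in Supraspinatus and 128, 135, 174 and 142 CPM in Achilles. It was higher in every library (log2 fold change 1.42 ± 0.13, adjusted p = 4.18e-05). Meis1 and Meis2, markers of the proximal limb, were both higher (0.82 ± 0.14 and 1.05 ± 0.20), and so were their partner Pbx3 (0.90 ± 0.16), En1 (1.38 ± 0.18), Barx1 (4.48 ± 0.76), Emx2 (0.98 ± 0.21), Irx3 (1.0 ± 0.26), Irx5 (1.26 ± 0.38) and Alx4 (1.0 ± 0.32). Emx2 is needed for the scapula. Shox2, a homeodomain factor of the proximal limb, was lower (log2 fold change -0.85 ± 0.16, adjusted p = 0.00183), as were Pbx2 (-0.40 ± 0.11), Dlx5 (-3.64 ± 0.52), Msx1 (-0.91 ± 0.17), Msx2 (-4.37 ± 0.82), Tbx2 (-1.09 ± 0.31) and Tbx3 (-0.71 ± 0.16). Sall1 had 3 counts in Supraspinatus against 95 in Achilles. Zic1, Lhx2, Meis3 and Tbx18 did not pass the threshold (adjusted p = 0.191, 0.356, 0.567 and 0.567). Irx5 was not past the threshold without Supraspinatus replicate 3 or Achilles replicate 2 or 4 (adjusted p = 0.0538 to 0.057), nor was Alx4 without Supraspinatus replicate 4 or Achilles replicate 1, 2 or 3 (adjusted p = 0.0505 to 0.0684), nor was Pbx2 without Achilles replicate 4 (adjusted p = 0.0541). Barx1 had a log2 fold change of 5.6 without Achilles replicate 2, Msx2 one of -3.72 without Achilles replicate 3. Irx5, Alx4, Pbx2 and Tbx3 were not past the threshold in a fit of all 16 libraries (adjusted p = 0.0802 to 0.117).

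Genes of slow and of fast muscle fibres differed in opposite directions. All 14 slow-fibre genes that passed the threshold, of 17 tested, were lower in Supraspinatus (median -4.11), and 18 of 20 fast-fibre genes were higher (median 2.29), 1 lower. Myh7, the slow myosin heavy chain (ENSMUSG00000053093, chr14:54970684-54994626, minus strand), had 8.44, 6.48, 8.71 and 6.03 CPM in Supraspinatus and 4167, 2413, 5272 and 2668 CPM in Achilles (log2 fold change -8.94 ± 0.40, adjusted p = 2.3e-06). It was close to absent from every Supraspinatus library and abundant in every Achilles library. Tnnc1, slow troponin C, had 3.84, 2.78, 2.57 and 3.74 CPM in Supraspinatus and 1016, 824, 1781 and 766 CPM in Achilles (log2 fold change -8.4 ± 0.39, adjusted p = 2.56e-06). Tnni1 and Tnnt1, the slow troponins I and T, were at 3.35 to 6.72 CPM against 709 to 1401 CPM and at 8.34 to 13.7 CPM against 1081 to 2177 CPM. In the fast group Myh4, the fastest (IIb) myosin heavy chain (chr11:67238029-67260446, plus strand), had 28590, 28090, 28370 and 24380 CPM in Supraspinatus and 115, 121, 334 and 839 CPM in Achilles (log2 fold change 6.28 ± 0.75, adjusted p = 0.000176). Pvalb, parvalbumin, which speeds relaxation by binding calcium, had 6868, 7144, 6296 and 5778 CPM in Supraspinatus and 86.1, 86, 217 and 189 CPM in Achilles (log2 fold change 5.49 ± 0.40, adjusted p = 1.5e-05). Achilles replicate 4 was the highest of its group for Myh4, though far below the Supraspinatus libraries. Mylk4, a myosin light chain kinase, was at 976 to 1241 CPM against 19.3 to 57.6 CPM (log2 fold change 4.91 ± 0.40, adjusted p = 2.43e-05), Actn3, the alpha-actinin of fast fibres, at 6838 to 7683 CPM against 121 to 360.3 CPM and Sypl2, a triad junction protein, at 351 to 499 CPM against 41.7 to 73.4 CPM. Myh2, the IIa chain of fast oxidative fibres, went the other way (log2 fold change -1.23 ± 0.29, adjusted p = 0.00676). Myh4 had a log2 fold change of 7.17 without Achilles replicate 4. Myh2 was not past the threshold in a fit of all 16 libraries (adjusted p = 0.257).

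The 250 bases upstream of the start are shown for the 3 called slow and the 3 called fast genes with the largest changes and a single start in the RefSeq table, because these are the fibre genes with the largest changes that have 1 start (GRCm38.p6, 5′ to 3′ on the gene's own strand). Capitals mark CANNTG, the E-box read alike on both strands, to which myogenic factors such as MyoD can bind. The slow genes are Tnnc1, chr14:31208062-31208311, plus strand, Myl3, chr9:110763428-110763677, plus strand and Tnnt1, chr7:4515976-4516225, minus strand. The fast genes are Myh4, chr11:67237562-67237811, plus strand, Mylk4, chr13:32783965-32784214, minus strand and Mybpc2, chr7:44524670-44524919, minus strand.
Tnnc1: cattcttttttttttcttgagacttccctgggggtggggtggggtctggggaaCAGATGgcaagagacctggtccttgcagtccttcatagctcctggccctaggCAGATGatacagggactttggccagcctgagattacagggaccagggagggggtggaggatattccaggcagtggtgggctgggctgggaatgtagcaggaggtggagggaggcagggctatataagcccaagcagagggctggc
Myl3: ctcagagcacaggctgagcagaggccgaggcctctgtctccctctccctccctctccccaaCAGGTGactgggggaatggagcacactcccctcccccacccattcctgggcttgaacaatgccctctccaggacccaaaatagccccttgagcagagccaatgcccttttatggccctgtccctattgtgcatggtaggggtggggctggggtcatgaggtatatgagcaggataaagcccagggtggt
Tnnt1: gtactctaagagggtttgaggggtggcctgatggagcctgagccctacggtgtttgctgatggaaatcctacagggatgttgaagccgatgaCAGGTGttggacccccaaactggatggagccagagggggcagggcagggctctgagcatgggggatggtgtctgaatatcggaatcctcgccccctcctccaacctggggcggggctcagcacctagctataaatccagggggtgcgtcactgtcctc
Myh4: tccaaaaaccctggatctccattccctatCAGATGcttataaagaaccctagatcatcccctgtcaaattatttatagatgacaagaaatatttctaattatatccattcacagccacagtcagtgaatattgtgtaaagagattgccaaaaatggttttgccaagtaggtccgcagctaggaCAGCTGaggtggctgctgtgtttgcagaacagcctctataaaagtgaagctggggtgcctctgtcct
Mylk4: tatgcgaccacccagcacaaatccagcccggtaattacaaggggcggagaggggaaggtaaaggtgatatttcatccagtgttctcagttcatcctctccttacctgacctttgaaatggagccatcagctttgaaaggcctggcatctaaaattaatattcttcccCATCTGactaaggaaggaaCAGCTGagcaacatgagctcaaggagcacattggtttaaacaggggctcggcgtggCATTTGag
Mybpc2: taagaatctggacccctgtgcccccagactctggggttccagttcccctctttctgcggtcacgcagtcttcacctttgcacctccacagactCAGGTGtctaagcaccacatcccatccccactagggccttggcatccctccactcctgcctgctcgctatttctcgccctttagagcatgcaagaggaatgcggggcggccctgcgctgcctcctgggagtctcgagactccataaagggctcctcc
Each of the 6 windows held at least 1 E-box, with 3 in Mylk4, 2 each in Tnnc1 and Myh4, and 1 each in the other 3. Of 17 windows of 13 called slow genes in the table, 17 held one, as did 12 of 14 windows of 13 fast genes. The share over all 32851 windows was 66.2%. A match is a description of these letters and not a binding site. The E-box was present upstream of genes that were lower and of genes that were higher. Myl3, the slow ventricular light chain, was at 4.82 to 16.4 CPM against 1445 to 3196 CPM (log2 fold change -7.9 ± 0.58, adjusted p = 1.5e-05), and Mybpc2, fast myosin binding protein C, at 2407 to 2651 CPM against 78.2 to 261 CPM (log2 fold change 3.97 ± 0.42, adjusted p = 9.76e-05).

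Shares within a set of isoforms were computed after dividing counts by exon length, taken as the union of all annotated exons of a gene. This union can be longer than the transcript made, and the percentages depend on it. Such shares were chosen after earlier values of these data had been seen. Myh7 made up 0.0157%, 0.0133%, 0.0167% and 0.0133% in Supraspinatus and 45.2%, 35.2%, 32.7% and 28.4% in Achilles of the 4 adult myosin heavy chains. Myh4 made up 76.2%, 82.6%, 77.8% and 77.2% in Supraspinatus and 1.79%, 2.52%, 2.97% and 12.8% in Achilles. All Supraspinatus libraries were therefore dominated by the IIb chain, while Achilles libraries held a mixture led by Myh2 and Myh7. Myh2 averaged 3.22% ± 0.827 in Supraspinatus and 37.2% ± 2.59 in Achilles, and Myh1, the IIx chain, 18.3% ± 2.44 in Supraspinatus and 22.4% ± 5.62 in Achilles (SD, n = 4 each). The Myh1 shares overlapped (exact permutation test, 2-sided p = 0.2). The other 10 of 11 shares had groups that did not overlap, with p = 0.0286 in the exact permutation test, the smallest that 4 libraries against 4 allow, and 0.0315 after Benjamini-Hochberg adjustment over the 11. Myh1, Myh2 and Myh4 are near-identical in long stretches, so that the split of reads among them is uncertain.

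Other isoform pairs moved the same way. Slow troponin C made up 1.05% ± 0.293 in Supraspinatus and 91% ± 1.16 in Achilles of Tnnc1 and Tnnc2, slow troponin T 0.0748% ± 0.0267 in Supraspinatus and 26.7% ± 4.1 in Achilles of Tnnt1 and Tnnt3, and slow troponin I 0.0282% ± 0.00923 in Supraspinatus and 16.1% ± 2.84 in Achilles of Tnni1 and Tnni2. The slow calcium pump Atp2a2 made up 0.301% ± 0.0469 in Supraspinatus and 8.37% ± 1.37 in Achilles of both sarcoplasmic pumps. Casq2 made up 0.315% ± 0.105 in Supraspinatus and 15.1% ± 0.964 in Achilles of the calsequestrins, the calcium stores of the reticulum. Actn3 made up 87.8% ± 2.38 in Supraspinatus and 9.42% ± 4.03 in Achilles of the muscle alpha-actinins, and Ldhb, the lactate dehydrogenase of oxidative tissue, 4.8% ± 1.48 in Supraspinatus and 53.9% ± 6.64 in Achilles of Ldha and Ldhb. Slow isoforms were thus a minor part of each pair in Supraspinatus, and troponin C was the pair with the largest difference in percentage points. Atp2a2 and Ldhb are also made by cells other than muscle. The Ldhb share also rests on exon lengths of 3310 bases for Ldha and 1570 bases for Ldhb.

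**Figure D3:**
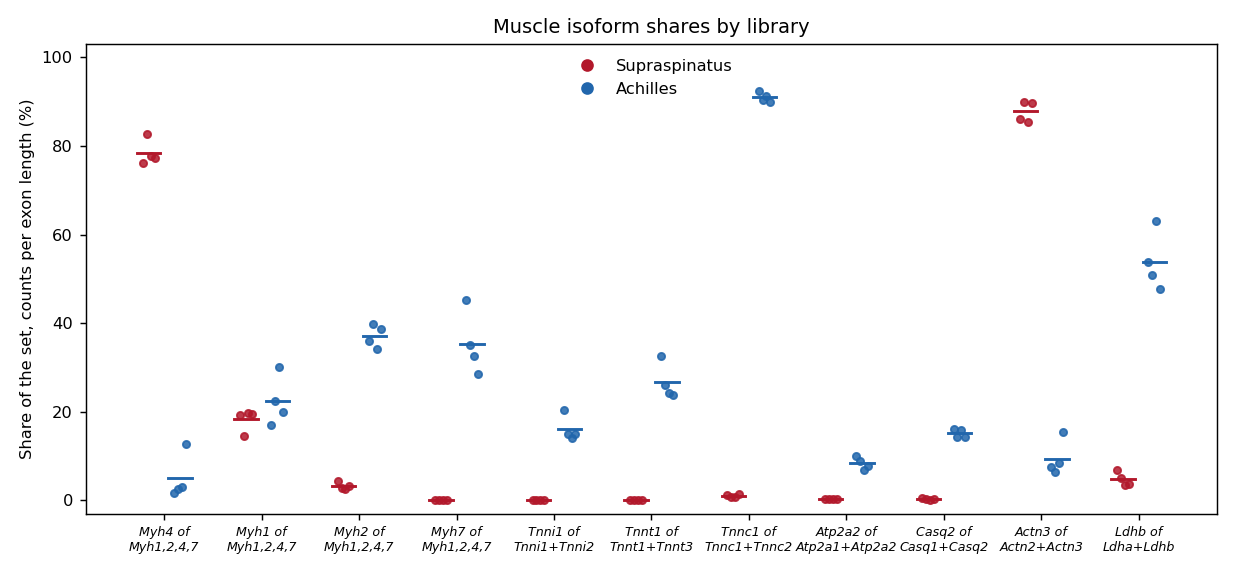
Share of each isoform among the set named below it, in percent of counts per exon length, with Supraspinatus (red) left of Achilles (blue); points are libraries and bars their means. The Myh4 and Actn3 shares are near the top in Supraspinatus and near the bottom in Achilles, the slow isoforms are near 0 in Supraspinatus and higher in Achilles, and the Myh1 shares overlap.

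Muscle genes listed as shared by fibre types differed less. A place on the list does not show that a gene is made equally in slow and fast fibres, which was not tested. In this list 14 of 31 tested members were higher in Supraspinatus and 1 was lower, with a median of 0.61. Eno3, muscle enolase (2.22 ± 0.28), Myom2, an M-band protein (2.33 ± 0.31), Pygm, muscle glycogen phosphorylase (2.21 ± 0.30), and Ckm, muscle creatine kinase (1.95 ± 0.32), led those that were higher, and Actn2, the alpha-actinin of all fibres, was lower (-1.24 ± 0.28). Counts in the 58 fibre markers summed to 19.2% to 20.8% in Supraspinatus and 7.87% to 14.8% in Achilles of all counts. The lowest Supraspinatus share lay above the highest Achilles share. With the muscle marker level as a covariate 9929 genes were called, and with the muscle markers left out before scaling 10126 were. None was in the opposite direction to the fit without these steps. The covariate was the mean log2 CPM of the 58 markers, of which 29 were higher and 12 lower in Supraspinatus. It averages opposed changes, so it cannot account for fibre type, nor cleanly for the amount of muscle. The list of the neuromuscular junction and of myogenic regulators had 14 of 20 members higher and 3 lower. Myod1, a master factor of myogenesis, had 46.8, 34.7, 35.6 and 41.5 CPM in Supraspinatus and 8.15, 5.94, 9.91 and 5.3 CPM in Achilles (log2 fold change 2.44 ± 0.20, adjusted p = 2.97e-05), and Mstn, myostatin, which limits muscle growth, had 84.8, 95.7, 96.6 and 111 CPM in Supraspinatus and 4.17, 2.21, 3.43 and 6.96 CPM in Achilles (log2 fold change 4.53 ± 0.32, adjusted p = 1.31e-05). Both were higher in all Supraspinatus libraries. The acetylcholine receptor subunits were split, with Chrnb1 higher (1.48 ± 0.14) and Chrna1 and Chrnd lower (-2.33 ± 0.44 and -3.23 ± 0.50). Ache, which breaks acetylcholine down, was higher (2.73 ± 0.40) and Colq, the collagen tail that anchors it, was lower (-3.34 ± 0.42). Actn2 was not past the threshold in a fit of all 16 libraries (adjusted p = 0.16).

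Genes of energy metabolism were split by pathway. In glycolysis and glycogen use, 19 of 32 tested members were higher in Supraspinatus and 3 were lower, with a median of 1.17. Phka1 and Phkg1, subunits of the kinase that switches on glycogen breakdown, were higher (log2 fold change 2.91 ± 0.22, adjusted p = 1.54e-05 for Phka1 and 3.05 ± 0.26 for Phkg1), as were the lactate exporter Slc16a3 (2.91 ± 0.24) and phosphoglucomutase Pgm1 (1.98 ± 0.20). Ldhb was lower (log2 fold change -3.09 ± 0.35, adjusted p = 0.000135), as were the liver-type phosphofructokinase Pfkl (-0.59 ± 0.12) and the lactate transporter Slc16a1 (-0.51 ± 0.17). In fatty acid oxidation, 1 of 29 tested members was higher in Supraspinatus and 12 were lower, with a median of -0.50. Lpl, which frees fatty acids from lipoproteins, and Cd36, which takes them up, were both lower (-2.37 ± 0.24 and -1.71 ± 0.24), along with Hadh and Decr1 of beta-oxidation (-1.04 ± 0.16 and -0.80 ± 0.18), and Ppard was higher (0.43 ± 0.14). Lpl and Cd36 are also adipocyte and endothelial genes. Adipocyte markers, a list that includes Lpl, summed to 0.123% to 0.312% of the counts in Supraspinatus and 1.17% to 2.08% in Achilles. In contrast only 3 of 46 nuclear genes of oxidative phosphorylation were higher and 1 was lower, a smaller share than over all genes, with a median of 0.24. Slc16a1 was not past the threshold without Supraspinatus replicate 1, 2 or 4 or Achilles replicate 1, 3 or 4 (adjusted p = 0.0585 to 0.0958), nor was Ppard without Supraspinatus replicate 1 or 4 or Achilles replicate 1 or 4 (adjusted p = 0.0549 to 0.0804). Pfkl was not past the threshold in a fit of all 16 libraries (adjusted p = 0.057). Ppard was not past the threshold among genes with a mean of at least 5 CPM or with the muscle level as a covariate (adjusted p = 0.0554 to 0.0697).

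Few of the genes that define a tendon passed the test. Of 26 tendon regulators and markers, 5 were higher and 2 lower, below the shares over all genes, with a median of 0.23. Scx, the transcription factor of tendon progenitors, had 43.5, 34.6, 50.3 and 92.7 CPM in Supraspinatus and 22.5, 23.4, 12 and 17.3 CPM in Achilles. Its groups did not overlap (log2 fold change 1.56 ± 0.32, adjusted p = 0.00335). Tnmd, a target of Scx and a marker of tenocytes, had 169.6, 75.1, 115 and 257 CPM in Supraspinatus and 163, 189, 119 and 256 CPM in Achilles. These values overlapped and did not pass the threshold (log2 fold change -0.24 ± 0.36, adjusted p = 0.617). The same was true of Mkx (-0.41 ± 0.30, adjusted p = 0.302), Thbs4, a matrix protein of tendon and muscle (0.69 ± 0.48, adjusted p = 0.266), Cilp (0.095 ± 0.26, adjusted p = 0.787), Comp, which bridges collagen fibrils (-0.77 ± 0.34, adjusted p = 0.0921), and Ptx4, a pentraxin (0.54 ± 0.52, adjusted p = 0.42). Kera, keratocan, and Tnc, tenascin C, were higher but varied widely, at 81.5 to 841 CPM against 19.3 to 60.9 CPM and at 29.6 to 337 CPM against 14 to 39.4 CPM (log2 fold change 2.91 ± 0.72, adjusted p = 0.00878 for Kera and 2.61 ± 0.66 for Tnc). Clec3b, tetranectin, was higher (1.01 ± 0.26), and Chad, chondroadherin, was lower (log2 fold change -1.6 ± 0.37, adjusted p = 0.00651). Comp passed the threshold without Achilles replicate 3 (adjusted p = 0.0231). Kera had a log2 fold change of 1.77 without Supraspinatus replicate 4, Tnc one of 1.79 without Supraspinatus replicate 4. Comp passed the threshold by DESeq2 (adjusted p = 0.0412).

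The chains of type I collagen did not pass the test. Col1a1 had 4087, 1811, 3889 and 10060 CPM in Supraspinatus and 5304, 7879, 2546 and 7150 CPM in Achilles, and Col1a2 was at 1966 to 9972 CPM against 3193 to 9268 CPM. Neither passed the threshold (log2 fold changes -0.20 ± 0.52 and -0.44 ± 0.51, adjusted p = 0.771 and 0.506), and the 4 Supraspinatus values of Col1a1 themselves spanned a wide range. Without Supraspinatus replicate 4 the log2 fold changes were -0.80 and -1.04 (adjusted p = 0.178 and 0.081). Among 22 collagens 3 were higher and 3 were lower (13.6% each), below the shares over all genes, with a median of -0.17. Those higher were Col14a1 (1.18 ± 0.33), Col6a3 (1.03 ± 0.33) and Col6a1 (0.85 ± 0.31). Those lower were Col24a1 (-1.22 ± 0.27), Col28a1 (-1.96 ± 0.46) and Col5a3 (-1.11 ± 0.27). Genes that process and crosslink collagen were mostly higher where called: 11 of 25 tested members were higher in Supraspinatus and 1 was lower, with a median of 0.73. They included the prolyl hydroxylase subunits P4ha3 (log2 fold change 3.54 ± 0.53, adjusted p = 0.000622) and P4ha2 (0.81 ± 0.14), the crosslinking enzyme Loxl4 (1.33 ± 0.29) and Bmp1, which trims procollagen (1.22 ± 0.27), and Loxl1 was the lower member (-0.55 ± 0.18). The number higher was 7 without Supraspinatus replicate 4, without Achilles replicate 1 or without Achilles replicate 4, and 17 with the muscle level as a covariate. Col6a3 was not past the threshold without Supraspinatus replicate 3 or 4 or Achilles replicate 4 (adjusted p = 0.0568 to 0.0817), nor was Col6a1 without Supraspinatus replicate 3 or 4 or Achilles replicate 1 or 4 (adjusted p = 0.0645 to 0.111), nor was Loxl1 without Supraspinatus replicate 1, 2 or 3 or Achilles replicate 1, 2 or 4 (adjusted p = 0.068 to 0.0987). P4ha3 had a log2 fold change of 4.24 without Achilles replicate 1. Col6a1 was not past the threshold among genes with a mean of at least 5 CPM (adjusted p = 0.0769). Loxl1 was not past the threshold in a fit of all 16 libraries or with the muscle level as a covariate (adjusted p = 0.064 to 0.187).

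Among small leucine-rich proteoglycans, which coat collagen fibrils, 4 of 14 tested members were higher in Supraspinatus (28.6%) and 2 were lower (14.3%), with a median of 0.40. The shares over all genes were 22.3% and 24.4%. Aspn, asporin, which binds collagen and calcium, had 388, 680, 431 and 456 CPM in Supraspinatus and 170, 112, 86.8 and 126 CPM in Achilles (log2 fold change 1.98 ± 0.25, adjusted p = 0.000226). Prelp was at 2765 to 4609 CPM against 600.5 to 1516 CPM (log2 fold change 1.81 ± 0.30, adjusted p = 0.00112). Both were higher in all Supraspinatus libraries, Ogn was lower (-0.94 ± 0.24), and Dcn, decorin, the classic proteoglycan of tendon, did not pass the threshold (log2 fold change -0.30 ± 0.32, adjusted p = 0.463). Elastic fibre genes were called in both directions. Eln, elastin, had 31.3, 22.3, 24.1 and 38.2 CPM in Supraspinatus and 387, 104, 240.3 and 215 CPM in Achilles (log2 fold change -3.03 ± 0.37, adjusted p = 0.000204), and was lower together with Fbln5 (-1.08 ± 0.19), which assembles elastic fibres, and Efemp1 (-1.49 ± 0.38). Fbn1, fibrillin 1, the microfibril backbone, had 316, 489.7, 387 and 492 CPM in Supraspinatus and 182, 111, 62.9 and 105 CPM in Achilles (log2 fold change 1.87 ± 0.30, adjusted p = 0.000949), and was higher together with Fbln2 (1.3 ± 0.17), Ltbp4 (0.79 ± 0.21) and Ltbp2 (1.01 ± 0.32). In all, 4 of 18 elastic fibre genes were higher (22.2%) and 3 lower (16.7%), no larger shares than the 22.3% and 24.4% over all genes, with a median of 0.21. Elastin is also made by vascular smooth muscle, whose markers summed to 0.403% to 0.504% in Supraspinatus and 0.402% to 0.952% in Achilles of the counts. These sums include Des, desmin, which is also on the list of skeletal muscle fibre markers, so they do not measure smooth muscle alone. Although these sums overlapped, 10 of the 16 markers were lower in Supraspinatus (median -1.37), among them Acta2, smooth muscle actin, at 80.7 to 150.5 CPM against 244 to 2428 CPM (log2 fold change -3.59 ± 0.61, adjusted p = 0.00131). The part of these cells in the elastin difference was not tested. Ltbp2 was not past the threshold without Achilles replicate 4 (adjusted p = 0.0719).

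On the list of matrix proteases, their inhibitors and related genes, more were lower than higher. Of 28 tested members 2 were higher in Supraspinatus (7.14%) and 11 were lower (39.3%), with a median of -0.47. Adamts5, the main aggrecanase of mouse cartilage, had 18.7, 18.5, 22.3 and 17.4 CPM in Supraspinatus and 78.5, 111, 63.8 and 104 CPM in Achilles (log2 fold change -2.21 ± 0.18, adjusted p = 2.44e-05). It was lower in every Supraspinatus library. Adamts15 (-2.59 ± 0.33) and Adamts9 (-1.49 ± 0.20) were lower too, and so was Adamtsl1 (-2.35 ± 0.21), an ADAMTS-like gene that is not itself a protease. Timp2, an inhibitor of metalloproteases, and Adamts20 were the higher ones (1.09 ± 0.27 and 0.94 ± 0.28). Adamts20 was not past the threshold without Supraspinatus replicate 1 or Achilles replicate 2 or 4 (adjusted p = 0.0553 to 0.0601). Adamts20 was not past the threshold with the muscle level as a covariate (adjusted p = 0.0531).

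More genes of cartilage and bone were lower in Supraspinatus than were higher. In the cartilage list, 3 of 24 tested members were higher in Supraspinatus and 13 were lower, with a median of -1.28. Cytl1, a secreted cartilage cytokine, had 8.8, 4.2, 12.2 and 3.11 CPM in Supraspinatus and 229.7, 263, 204 and 230.1 CPM in Achilles (log2 fold change -5.03 ± 0.43, adjusted p = 3.11e-05). Ucma, a matrix protein of growth cartilage, was at 0.0768 to 0.418 CPM against 6.4 to 13.9 CPM (log2 fold change -5.3 ± 0.49, adjusted p = 4.74e-05), and the collagen IX chains Col9a2 and Col9a3, which decorate cartilage fibrils, had log2 fold changes of -4.95 ± 0.48 and -3.1 ± 0.32 at low levels. Prg4, lubricin, which coats joint and tendon surfaces, had 735, 845, 1111 and 761 CPM in Supraspinatus and 1985, 3965, 2307 and 2579 CPM in Achilles (log2 fold change -1.65 ± 0.26, adjusted p = 0.000849). Each of these 5 genes was lower in every Supraspinatus library. Acan and Col2a1, the classic genes of hyaline cartilage, did not pass the threshold (log2 fold changes -1.11 ± 0.70 and -1.48 ± 0.59, adjusted p = 0.22 and 0.0653), and Acan ranged over 3.04 to 48.3 CPM against 27.8 to 57.6 CPM. Sox9, the chondrocyte master factor that also acts at tendon insertions, and its partner Sox6 were higher (0.59 ± 0.19 and 1.32 ± 0.15), as was Epyc (2.04 ± 0.66). Sox9 was not past the threshold without Supraspinatus replicate 3 or 4 or Achilles replicate 1, 3 or 4 (adjusted p = 0.052 to 0.0799), nor was Epyc without Supraspinatus replicate 3 or 4 or Achilles replicate 2, 3 or 4 (adjusted p = 0.0569 to 0.0877). Acan passed the threshold without Supraspinatus replicate 3 (adjusted p = 0.0245), as did Col2a1 without Supraspinatus replicate 4 or Achilles replicate 3 (adjusted p = 0.00124 to 0.0481). Col2a1 passed the threshold by DESeq2 and by limma voom (adjusted p = 0.0197 to 0.021). Sox9 was not past the threshold among genes with a mean of at least 5 CPM or in a fit of all 16 libraries (adjusted p = 0.0633 to 0.187). Epyc was not past the threshold by limma voom (adjusted p = 0.0687).

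In the bone list, 3 of 16 tested members were higher in Supraspinatus and 8 were lower, with a median of -0.64. Ibsp, bone sialoprotein, which nucleates mineral (ENSMUSG00000029306, chr5:104299171-104311469, plus strand), had 0.368, 0.307, 0.655 and 0.520 CPM in Supraspinatus and 291, 811, 354 and 605 CPM in Achilles (log2 fold change -10.12 ± 0.49, adjusted p = 2.94e-06). Each Supraspinatus library was below 1 CPM, and no Achilles library was. Spp1, osteopontin, had 10.2, 11.4, 48 and 6.28 CPM in Supraspinatus and 1419, 2249, 1093 and 1268 CPM in Achilles (log2 fold change -6.31 ± 0.73, adjusted p = 0.000146), with Supraspinatus replicate 3 the highest of its group. Sp7, the osteoblast factor osterix, had 1 count in Supraspinatus and 112 in Achilles, and Bglap2, an osteocalcin gene with a near-identical neighbour, had 2 and 386. Ank and Enpp1, which raise extracellular pyrophosphate and so hold back mineral, were higher (log2 fold change 1.49 ± 0.14, adjusted p = 4.22e-05 for Ank and 0.91 ± 0.24 for Enpp1), as was Phospho1 (1.32 ± 0.17). Alpl, which removes pyrophosphate, and Mgp, another inhibitor of mineral, did not pass the threshold (log2 fold changes -0.057 ± 0.17 and 0.10 ± 0.17, adjusted p = 0.802 and 0.646). Markers of osteoblasts and osteocytes summed to 0.00214% to 0.00281% in Supraspinatus and 0.0387% to 0.0972% in Achilles of the counts, the Achilles sum being mostly Ibsp. Chondrocyte markers summed to 0.00500% to 0.0138% in Supraspinatus and 0.0361% to 0.0551% in Achilles, where Cytl1 made the largest part. Sost, a marker of osteocytes, was near 0 in both tendons and not tested, with 0, 0, 0 and 0 counts in Supraspinatus and 12, 0, 4 and 5 counts in Achilles. The part of bone or cartilage carried over in dissection was not tested. Spp1 had a log2 fold change of -7.33 without Supraspinatus replicate 3.

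**Figure D4:**
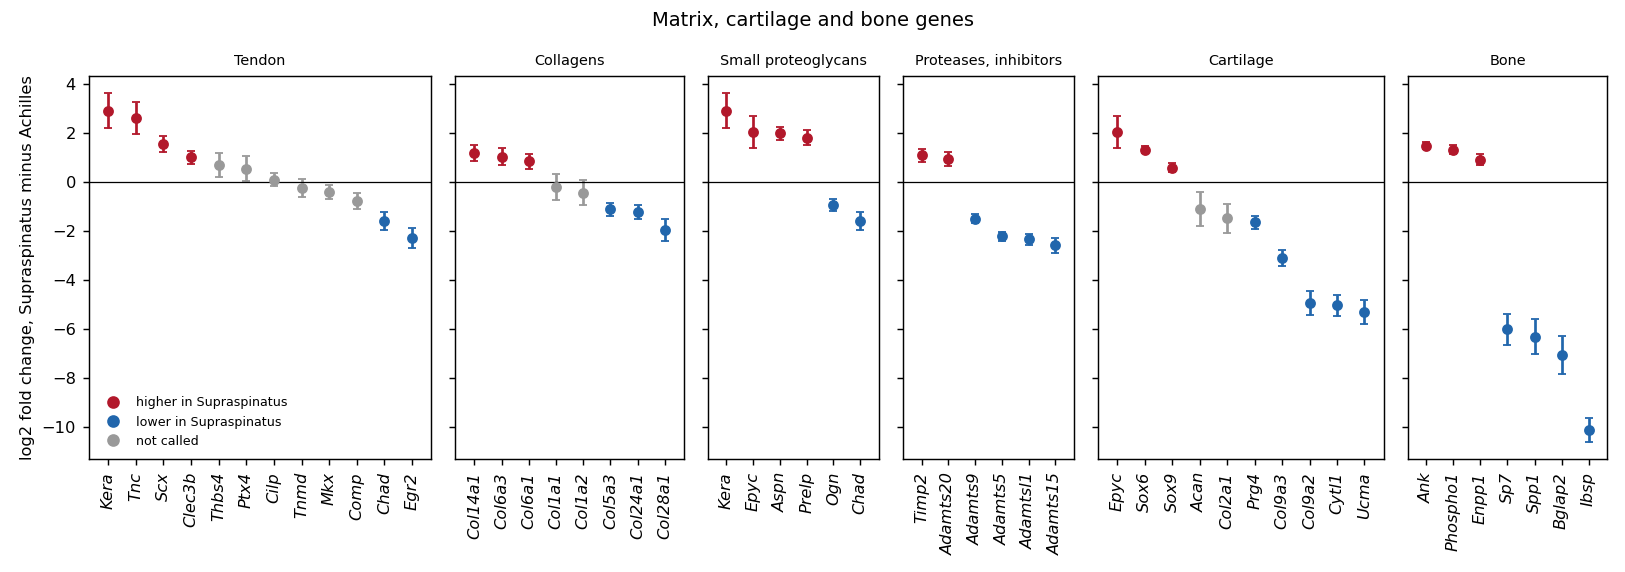
Log2 fold change, Supraspinatus minus Achilles, with the standard error, of matrix, cartilage and bone genes: up to 4 called members per direction of each list in order of adjusted p, and the panel genes of that list. Red was higher and blue lower in Supraspinatus at an adjusted p under 0.05 and grey was not called; Tnmd and Col1a1 lie near 0 and Ibsp lies lowest, at -10.12.

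Ligands, receptors and modulators of Wnt signalling, which acts on joint, bone and tendon cells, were called in both directions. Of 29 tested members 9 were higher in Supraspinatus and 8 were lower, with a median of -0.054. These shares, 31% and 27.6%, stand against 22.3% and 24.4% over all genes, and the values that follow are those of single genes. Among the ligand-side activators, Rspo1, an R-spondin that stabilises Wnt receptors, had 20.2, 19.6, 20.9 and 37.7 CPM in Supraspinatus and 0.378, 0.698, 0.535 and 0.610 CPM in Achilles (log2 fold change 5.47 ± 0.30, adjusted p = 4.43e-06). Rspo3, of the same family, had 0.400, 0.154, 0.179 and 0.305 CPM in Supraspinatus and 5.59, 4.5, 10.4 and 4.51 CPM in Achilles (log2 fold change -4.57 ± 0.41, adjusted p = 3.95e-05). The 2 R-spondins thus differed in opposite directions, each with groups that did not overlap. Of their receptors, Lgr4 was higher (0.98 ± 0.092) and Lgr5 lower (-4.58 ± 0.52). Wnt ligands Wnt9a and Wnt4 were higher (log2 fold change 1.92 ± 0.16, adjusted p = 3.1e-05 for Wnt9a and 3.21 ± 0.31 for Wnt4). Among secreted inhibitors, Frzb, which binds Wnt in cartilage and joints, had 1.34, 1.37, 1.19 and 2.0 CPM in Supraspinatus and 54.6, 73.9, 53.8 and 71.5 CPM in Achilles (log2 fold change -5.42 ± 0.21, adjusted p = 1.5e-06). Sfrp5 was at 0.274 to 0.684 CPM against 11.2 to 31.6 CPM (-5.42 ± 0.41) and Sfrp2 at 0.989 to 10.5 CPM against 7.64 to 48.5 CPM (log2 fold change -2.65 ± 0.77, adjusted p = 0.019). All 3 were lower, while the feedback target Axin2 did not pass the threshold (log2 fold change -0.28 ± 0.17, adjusted p = 0.199). Sfrp2 had a log2 fold change of -3.63 without Supraspinatus replicate 4. Sfrp2 was not past the threshold with no filter on low counts (adjusted p = 0.0695).

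In BMP and GDF signalling, 11 of 27 tested members were higher in Supraspinatus (40.7%) and 9 were lower (33.3%), with a median of -0.055. Here and in the 2 lists below, the shares over all genes to compare are 22.3% higher and 24.4% lower. Beside Mstn, the ligand Bmp4 was higher, at 44 to 72 CPM against 11.9 to 20.4 CPM (log2 fold change 1.8 ± 0.20, adjusted p = 0.000125), as were the inhibitory Smads Smad6 and Smad7 (1.38 ± 0.14 and 1.3 ± 0.13). The antagonists Grem1 and Fst were lower (log2 fold change -4.71 ± 0.41, adjusted p = 3.61e-05 for Grem1 and -1.4 ± 0.14 for Fst), and so were the BMP targets Id2 and Id3 (-1.34 ± 0.14 and -0.92 ± 0.15), while Id1 did not pass the threshold (adjusted p = 0.381). Gdf5, the joint and tendon-insertion ligand, was at 0.0896 to 1.52 CPM against 3.05 to 10.5 CPM (log2 fold change -3.75 ± 0.81, adjusted p = 0.00445). In TGF-beta signalling, 6 of 19 tested members were higher in Supraspinatus (31.6%) and 3 were lower (15.8%), with a median of 0.11. The ligands Tgfb1 and Tgfb3 were lower (-0.89 ± 0.18 and -0.60 ± 0.15) and the receptor Tgfbr1 was higher (0.71 ± 0.15), as were Inhba (1.18 ± 0.20) and the target gene Skil (1.09 ± 0.14). In IGF signalling, 4 of 13 tested members were higher in Supraspinatus and 4 were lower (30.8% each), with a median of -0.60. Binding proteins differed in opposite directions, Igfbp7 and Igfbp6 higher (1.83 ± 0.20 and 1.48 ± 0.28), Igfbp4 and Igfbp2 lower (-3.34 ± 0.38 and -3.84 ± 0.55). Igfbp4 had 34, 82.3, 35.5 and 89.5 CPM in Supraspinatus and 653, 749.5, 405 and 639 CPM in Achilles. Of the receptors, Igf2r and Igf1r were higher (1.28 ± 0.14 and 0.41 ± 0.097). Gdf5 had a log2 fold change of -5.17 without Supraspinatus replicate 4.

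Markers of fat, nerve sheath and vessels were lower in Supraspinatus. All 18 of the 19 adipocyte markers that passed the filter on low counts were lower (median -3.08), and their counts summed to 0.123% to 0.312% in Supraspinatus and 1.17% to 2.08% in Achilles. Adipoq, adiponectin, had 9.57, 101, 15.7 and 36 CPM in Supraspinatus and 342, 368, 172 and 534 CPM in Achilles (log2 fold change -3.13 ± 0.70, adjusted p = 0.00562). Supraspinatus replicate 2 was far above the other 3 Supraspinatus libraries and still below all Achilles libraries. Lep, leptin, was at 1.55 to 3.55 CPM against 68.1 to 283 CPM (log2 fold change -6.05 ± 0.49, adjusted p = 2.43e-05). All 19 Schwann cell markers were lower (median -4.54), with sums of 0.0421% to 0.0504% in Supraspinatus and 0.110% to 0.672% in Achilles. Mbp, a basic protein of myelin, had 14.6, 14.8, 13.8 and 9.92 CPM in Supraspinatus and 678, 122, 1473 and 698 CPM in Achilles (log2 fold change -5.81 ± 0.68, adjusted p = 0.000156). Supraspinatus values lay close together, whereas Achilles replicate 3 was the highest and Achilles replicate 2 the lowest of their group. Sox10, the Schwann cell master factor, was at 0.238 to 0.497 CPM against 6.02 to 38.1 CPM (log2 fold change -6.07 ± 0.57, adjusted p = 4.95e-05). The remaining adipocyte marker, Ucp1, the uncoupling protein of brown fat, did not pass the filter. It had 17, 631, 3 and 1 counts in Supraspinatus and 0, 0, 0 and 0 counts in Achilles, so that its Supraspinatus counts came almost all from replicate 2, the library with the highest Adipoq of its group. No other marker on either list was at 0 counts in all libraries of a tendon. Adipoq had a log2 fold change of -4.11 without Supraspinatus replicate 2, Mbp one of -5.22 without Achilles replicate 3.

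Of 20 endothelial markers 16 were lower and 1, Lyve1, was higher (median -1.04), with sums of 0.102% to 0.130% in Supraspinatus and 0.166% to 0.245% in Achilles. Egfl7, an endothelial secreted factor, had 22, 25.2, 24.2 and 26.6 CPM in Supraspinatus and 82.6, 71.4, 72.4 and 67.9 CPM in Achilles (log2 fold change -1.59 ± 0.096, adjusted p = 6.76e-06), and Vwf, von Willebrand factor, was at 30.9 to 40.3 CPM against 81.8 to 134 CPM (-1.74 ± 0.16). The endothelial differences were smaller than those of fat and nerve markers but had little spread. Of 16 pericyte and smooth muscle markers 10 were lower and 1, Abcc9, was higher, with sums that overlapped and that include Des, also a skeletal muscle fibre marker. Myh11, smooth muscle myosin, was at 26.1 to 26.6 CPM against 97.8 to 908 CPM (log2 fold change -4.26 ± 0.58, adjusted p = 0.000385). Macrophage markers mostly did not pass the threshold, with 1 of 20 higher and 3 lower and sums of 0.0736% to 0.210% in Supraspinatus and 0.0488% to 0.156% in Achilles. Cx3cr1, the fractalkine receptor, was the macrophage marker with the largest difference (log2 fold change -4.79 ± 0.41, adjusted p = 3.05e-05), and its ligand Cx3cl1 was also lower (-1.86 ± 0.20). All 9 mast cell markers tested were lower, at sums of 0.000884% to 0.00155% in Supraspinatus and 0.00334% to 0.00701% in Achilles. Among synovial lining markers 3 of 12 were higher (25%) and 7 lower (58.3%). Among satellite cell markers 5 of 10 were higher (50%) and 3 lower (30%). Over all genes 22.3% were higher and 24.4% lower. The satellite list shares Myod1 and Myf5 with the list of myogenic regulators. The part of each of these cell types in the other differences was not tested.

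**Figure D5:**
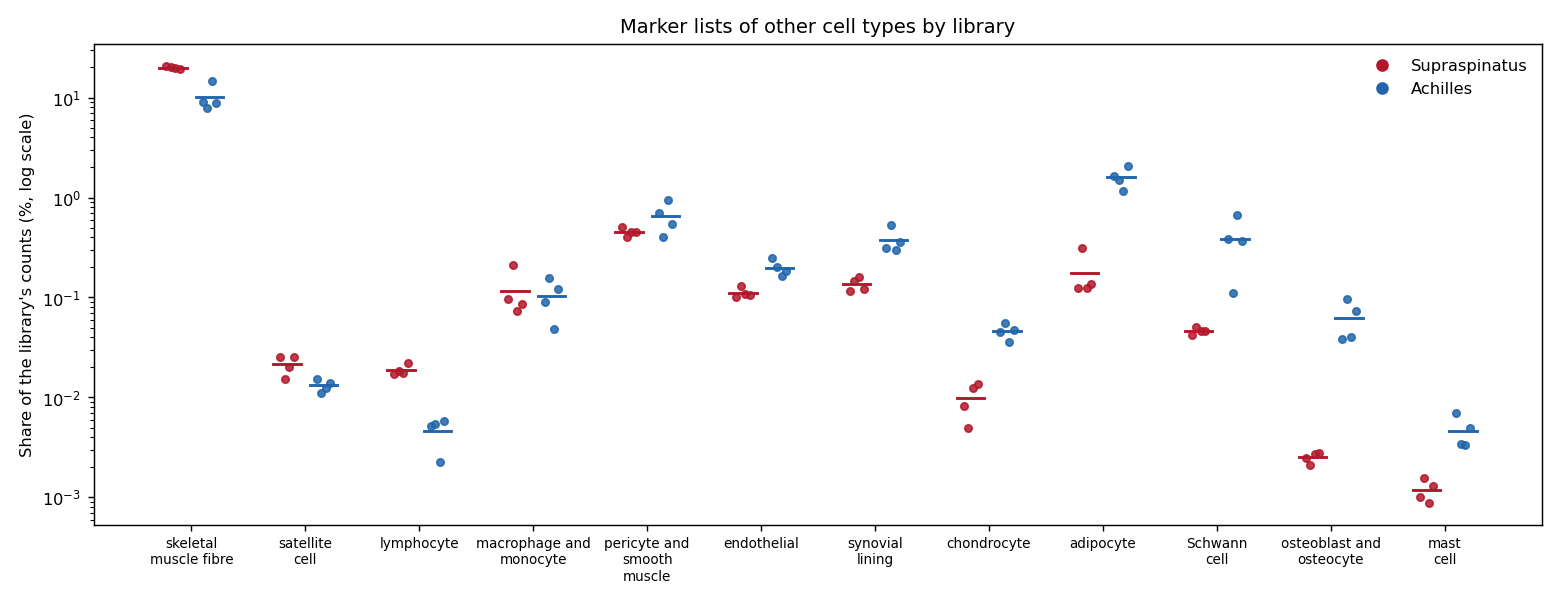
Share of all counts of a library, in percent on a log scale, in marker lists of 12 other cell types, with Supraspinatus (red) left of Achilles (blue); points are libraries and bars their means. Adipocyte, Schwann cell, osteoblast, chondrocyte and mast cell shares of Supraspinatus lie below all Achilles shares, and muscle fibre and lymphocyte shares lie above. The lymphocyte share is mostly 1 gene, Ighm, and the Achilles osteoblast share is mostly Ibsp. Macrophage and smooth muscle shares overlap, and Des is on both the smooth muscle and the muscle fibre list.

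Clock and stress genes also differed, and those called were mostly higher in Supraspinatus. Of 20 circadian clock genes 9 were higher and 1 lower (median 0.52). Nfil3, a clock-output repressor, had 43.8, 46.6, 45.3 and 25.5 CPM in Supraspinatus and 10.3, 8.31, 7.48 and 6.39 CPM in Achilles (log2 fold change 2.31 ± 0.22, adjusted p = 4.75e-05), and Nr1d2, Rora and Cry1 were higher (1.14 ± 0.11, 1.08 ± 0.12 and 1.26 ± 0.15). Arntl, a core clock activator, did not pass the threshold (adjusted p = 0.377), and Cry2 was lower (-0.38 ± 0.13). Of 32 immediate-early and heat shock genes 16 were higher and 2 lower (median 0.53). Hspa1b, an inducible heat shock protein, had 42.9, 39.5, 40.1 and 36.1 CPM in Supraspinatus and 16.7, 16, 15.2 and 15.9 CPM in Achilles (log2 fold change 1.31 ± 0.083, adjusted p = 7.63e-06), and Klf2, Maff and Hsph1 were higher (1.79 ± 0.16, 2.57 ± 0.24 and 2.07 ± 0.20). Myc was lower (-0.68 ± 0.20). The sources used here do not give the time of dissection or the order of tendons. Of 23 cell cycle genes 5 were higher (21.7%) and 1 lower (4.35%), no larger shares than the 22.3% and 24.4% over all genes (median 0.013). Tpx2, a spindle protein, was at 8.34 to 16 CPM against 0.888 to 2.13 CPM (log2 fold change 2.88 ± 0.31, adjusted p = 0.000102). Cry2 was not past the threshold without Supraspinatus replicate 1, 2, 3 or 4 or Achilles replicate 2 or 4 (adjusted p = 0.0583 to 0.108), nor was Myc without Supraspinatus replicate 1 or Achilles replicate 1 or 2 (adjusted p = 0.0522 to 0.0545). Cry2 was not past the threshold with no filter on low counts or in a fit of all 16 libraries (adjusted p = 0.0603 to 0.0624).

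Among cytokines and chemokines 3 of 25 tested members were higher in Supraspinatus (12%) and 8 were lower (32%), with a median of 0.089. Here and for complement, the shares over all genes to compare are 22.3% higher and 24.4% lower. Il33, an alarmin held in the nucleus of stromal cells, had 168, 153, 249 and 313 CPM in Supraspinatus and 24.8, 26.1, 14.1 and 23.9 CPM in Achilles (log2 fold change 3.31 ± 0.29, adjusted p = 3.31e-05). It was higher in every Supraspinatus library. Cxcl12, the stromal ligand of CXCR4, had 67.3, 66.1, 66 and 100.4 CPM in Supraspinatus and 358, 384, 246 and 323 CPM in Achilles (log2 fold change -2.13 ± 0.20, adjusted p = 4.37e-05). Ccl5 and Cxcl9 were lower at low levels (-3.88 ± 0.46 and -2.85 ± 0.41), and Tslp and Il16 were higher (1.11 ± 0.20 and 0.52 ± 0.12). Complement genes were lower where called, apart from Cd55, an inhibitor of complement on cell surfaces (1.69 ± 0.20). Of 19 tested members 1 was higher in Supraspinatus (5.26%) and 6 were lower (31.6%), with a median of -0.15. C7, of the membrane attack complex, was at 0.347 to 1.87 CPM against 18.9 to 116 CPM (log2 fold change -6.29 ± 0.69, adjusted p = 0.000113), and C2, C4b and Cfb were lower as well (-3.74 ± 0.31, -1.97 ± 0.39 and -1.84 ± 0.40). In axon guidance, 8 of 34 tested members were higher in Supraspinatus (23.53%) and 11 were lower (32.35%), with a median of -0.27. Over all genes these shares were 22.3% and 24.4%, and the values that follow are those of single genes. The semaphorins Sema3c, Sema3e and Sema4d and the netrin Ntn1 were higher (log2 fold change 1.69 ± 0.18, adjusted p = 0.00011 for Sema3c, then 1.74 ± 0.25, 1.36 ± 0.15 and 1.32 ± 0.18). Sema5a, Efnb1, Epha3 and Efna5 were lower (-2.42 ± 0.25, -1.04 ± 0.095, -2.17 ± 0.33 and -2.02 ± 0.31). Coch, a matrix protein, did not pass the threshold (log2 fold change -1.47 ± 0.55, adjusted p = 0.0505). Coch passed the threshold without Supraspinatus replicate 4 or Achilles replicate 3 (adjusted p = 0.0179 to 0.0258). Coch passed the threshold among genes with a mean of at least 5 CPM, by DESeq2, by limma voom and in a fit of all 16 libraries (adjusted p = 0.0117 to 0.0494).

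The other 2 tendons, scaled together with these, place the leading genes among all 16 libraries, as means ± SD with n = 4 per tendon. Tbx5 averaged 20.3 ± 2.45 CPM in Supraspinatus, 50.8 ± 5.31 CPM in forepaw flexor, 7.88 ± 0.961 CPM in patellar and 0.315 ± 0.151 CPM in Achilles. The flexor mean was the highest, and both forelimb tendons were above both hindlimb tendons. Pitx1 averaged 12.3 ± 1.87 CPM in Supraspinatus, 0.226 ± 0.0863 CPM in forepaw flexor, 61 ± 15.7 CPM in patellar and 19.3 ± 8.27 CPM in Achilles, and the low value belonged to the forepaw flexor and not to Supraspinatus. Isl1 averaged 0.00590 ± 0.00682 CPM in Supraspinatus, 0.0191 ± 0.0158 CPM in forepaw flexor, 0.573 ± 0.461 CPM in patellar and 10.1 ± 4.28 CPM in Achilles. Hoxc10 averaged 0.104 ± 0.138 CPM in Supraspinatus, 0.0415 ± 0.0148 CPM in forepaw flexor, 26.6 ± 6.27 CPM in patellar and 15 ± 2.67 CPM in Achilles, so that it was high in both hindlimb tendons, and Hoxa11 averaged 0.225 ± 0.114 CPM in Supraspinatus, 6.1 ± 0.526 CPM in forepaw flexor, 1.07 ± 0.581 CPM in patellar and 9.03 ± 3.33 CPM in Achilles, with the flexor and Achilles means the highest. Rspo1 averaged 25.1 ± 8.63 CPM in Supraspinatus, 3.95 ± 0.187 CPM in forepaw flexor, 1.26 ± 0.997 CPM in patellar and 0.554 ± 0.134 CPM in Achilles, and Il33 225 ± 74.5 CPM in Supraspinatus, 82.1 ± 10.4 CPM in forepaw flexor, 94 ± 37.5 CPM in patellar and 22.2 ± 5.6 CPM in Achilles. Both were highest in Supraspinatus by the mean. Myh7 averaged 7.58 ± 1.44 CPM in Supraspinatus, 11.8 ± 8.04 CPM in forepaw flexor, 68.6 ± 96.7 CPM in patellar and 3622 ± 1325 CPM in Achilles, far higher in Achilles than in the other 3 tendons. Ibsp averaged 0.472 ± 0.159 CPM in Supraspinatus, 4.11 ± 2.45 CPM in forepaw flexor, 25.5 ± 10.2 CPM in patellar and 514 ± 238 CPM in Achilles, again highest in Achilles, while Nnat averaged 2.73 ± 2.09 CPM in Supraspinatus, 9.28 ± 5.04 CPM in forepaw flexor, 516 ± 215 CPM in patellar and 456 ± 177 CPM in Achilles and did not separate Achilles from patellar. These orders are descriptions, with no test.

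The authors' deposited table holds their own comparison of these 2 tendons for 13452 genes, 5690 of them with an adjusted p under 0.05. Its fold change runs Achilles minus Supraspinatus. Of the genes called in the authors' deposited table, 5520 were also called here, and all 5520 had the same direction once the sign was turned to Supraspinatus minus Achilles.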

How the data were processed

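RNA from 16 whole-tendon samples was sequenced, and the 8 libraries of Supraspinatus and Achilles tendon were compared. The authors deposited 1 table of raw whole-number counts for 41204 genes and 16 libraries. The submitters' processing notes name HISAT2, FastQC, edgeR and the mm10 genome. Still not given in the sources used here are the versions of these tools, the counting tool, its strand setting and the annotation. The authors' deposited table of comparisons gives log2 fold changes and p-values, and was read only for its overlap with the calls made here.

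Counts were tested with the quasi-likelihood test of edgeR 4.0.16 in R 4.3.3 (robust, 2-sided, TMM scaling, filterByExpr by tendon), with Benjamini-Hochberg adjustment over all 21732 genes tested and a threshold of 0.05. Standard errors were obtained from the F statistic, as the size of the log2 fold change over the square root of F. CPM values are scaled by TMM. Positions and exon lengths, the union of all exons of a gene, came from GENCODE M21 (GRCm38), and promoters from RefSeq. Isoform shares were compared by an exact permutation test. Intervals and floors cover counting error only.

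The genes named were the 12 largest changes in each direction with a mean of at least 10 CPM and groups that did not overlap, up to 4 called members per direction of each list, limb identity, Hox and proximodistal genes, and a set panel; some genes that this rule picks are not reported here. Further genes, Gdf5 among them, were named after their values were seen. The members and lists were chosen with earlier results of these data known.

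On counts simulated for this comparison the test made 0 calls with no change among 21293 genes. It recovered 60.5% of 200 genes changed by 2-fold with 6 false calls, and 96% of 200 changed by 4-fold with 12 false calls. Far fewer genes were changed there than the 10152 called in the data. The adjustment and the scaling depend on that number, so these rates may not hold for this comparison. The alternatives were median-ratio size factors, 2 other filters, DESeq2 1.42.0, limma 3.58.1 (voom), a replicate block, all 16 libraries, a 2-fold threshold, muscle markers left out or used as a covariate, and each library left out in turn.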

Additional observations from a re-analysis of the deposited data

Results flagged for a closer look

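In a group of 4 libraries, 1 value stood apart when its gap to the nearest other value was more than Dixon's 95% critical value, as a part of the range of the group. Of 534 groups of 4, over 240 named genes, the marker sums and the isoform shares, 38 (7.12%) had such a value. Chance gives about 1 in 20 only for independent, normally distributed values. CPM values need not be normal, and these groups share libraries and genes, so 7.12% does not show an excess over chance. The ratio of gap to range follows each gene in brackets. Supraspinatus replicate 1 stood apart in CPM of Col28a1 (0.871), Colq (0.867) and Myh2 (0.881). Supraspinatus replicate 2 stood apart in CPM of Chad (0.897), Efemp1 (0.897), Hoxa13 (0.855) and Sema4d (0.851). Supraspinatus replicate 3 stood apart in CPM of Hoxa7 (0.846), Hoxd11 (0.93), Sfrp5 (0.832) and Spp1 (0.878). Supraspinatus replicate 4 stood apart in CPM of Bmp1 (0.919), Col2a1 (0.894), Cxcl12 (0.961), En1 (0.882), Hoxd3 (0.9), Kera (0.839), Myh4 (0.883), Nfil3 (0.864), Rspo1 (0.929), Tbx18 (0.876) and Timp2 (0.838). Achilles replicate 2 stood apart in CPM of Barx1 (0.891) and Cilp (0.931). Achilles replicate 3 stood apart in CPM of Cfb (0.856), Ckm (0.923), Ldhb (0.903), Padi2 (0.899) and Pbx3 (0.845). Achilles replicate 4 stood apart in CPM of Alx4 (0.89), Fst (0.865) and Ptx4 (0.835). Among sums and shares, the outlying libraries were Supraspinatus replicate 2 for the adipocyte markers (0.924), Supraspinatus replicate 2 for the macrophage and monocyte markers (0.836), Achilles replicate 4 for the epidermis and hair markers (0.887), Achilles replicate 4 for the IIb myosin heavy chain Myh4 share (0.893), Supraspinatus replicate 2 for the IIx myosin heavy chain Myh1 share (0.94) and Achilles replicate 1 for the slow troponin I Tnni1 share (0.845). The largest number of such values for single genes belonged to Supraspinatus replicate 4. Without it, 10493 genes were called, and 9334 of them were among the 10152 called with all 8 libraries, with the same direction. Technical and biological sources of these single values were not tested.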

How the results depend on the processing

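The number of called genes was 10152 as reported, 10216 with median-ratio size factors, 10048 with no filter on low counts, 11060 by DESeq2, 10325 by limma voom, 7972 in a fit of all 16 libraries, 10126 with muscle markers left out of the scaling and 9929 with the muscle level as a covariate. No gene was called in opposite directions between these settings and the reported fit, nor without any single library. Among genes with a mean of at least 5 CPM, 2866 were higher and 2878 lower of 11174 tested, and 868 and 1477 when a change of more than 2-fold was asked for; both settings test fewer genes or ask for more. Leaving out 1 library in turn gave 8515 to 11006 calls, 4031 to 5568 of them higher and 4484 to 5641 lower. With the 2-fold test, list counts fell to 12 higher for glycolysis, 4 lower for endothelial markers and 7 lower for cartilage. The list of matrix proteases, inhibitors and related genes fell to 7 lower. Collagen processing fell to 1 higher, and immediate-early and heat shock genes to 5 higher. With the filter of 5 CPM, 7 cartilage and 2 bone genes were lower, since fewer were tested. Collagen processing had 17 members higher with the muscle covariate and 7 to 12 when 1 library was left out; the cause was not tested. The mean muscle share of Supraspinatus was 20.86% when mitochondrially encoded and haemoglobin genes were left out of the total. The sign of the log2 fold change turned under at least 1 setting or without 1 library for Alpl (-0.174 to 0.087 without 1 library), Cilp (-0.008, -0.033 to 0.314 without 1 library), Col1a1 (0.311, -0.802 to 0.08 without 1 library), Col1a2 (0.034), Dcn (0.084), Hoxd13 (-0.225 to 0.758 without 1 library), Meis3 (-0.009), Ptx4 (-0.196 to 0.859 without 1 library), Tbx18 (-0.039 to 0.233 without 1 library) and Tnmd (0.001), none of them called in either case; brackets give the value after the turn, or the range when 1 library was left out. Libraries with the same mouse number did not deviate together: the correlations of their deviations from the tendon means were -0.081, 0.026, 0.088 and 0.072 for numbers 1 to 4, so the numbers were not used to pair them. With the mouse number as a replicate block, 9350 genes were called, 9001 of them shared with the reported fit in the same direction. The settings given gene by gene in the results leave this block out. With it, 3 named genes newly passed the threshold (Pitx1, Coch and Col2a1). Another 6 were no longer past it (Col6a1, Col6a3, Cry2, Epyc, Ppard and Sox9). Depth limits genes near 0: 3 counts over a group corresponded to 0.00868 CPM in Supraspinatus and 0.00732 CPM in Achilles.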

Other observations

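Markers of blood, skin and immune cells were at low levels in both tendons. For the lists below, the shares over all genes to compare are 22.3% higher and 24.4% lower. The lymphocyte list had 3 of 10 tested members higher (30%) and 2 lower (20%). Its sums were 0.0173% to 0.0222% in Supraspinatus and 0.00225% to 0.00577% in Achilles of all counts. Its highest member was Ighm, the immunoglobulin mu heavy chain, with 185, 192, 194 and 232 CPM in Supraspinatus and 26.3, 25.4, 13.2 and 35.5 CPM in Achilles (log2 fold change 3.0 ± 0.27, adjusted p = 3.84e-05). The light chain Igkc did not pass the threshold, at 0.119 to 0.756 CPM against 0.349 to 0.974 CPM (log2 fold change -0.76 ± 0.54, adjusted p = 0.277), and Cd79a, a signalling partner of the B cell receptor, was lower in Supraspinatus, at 0.0384 to 0.202 CPM against 0.355 to 0.439 CPM (log2 fold change -1.57 ± 0.41, adjusted p = 0.0111). Cd3e, a T cell receptor subunit, was higher (3.64 ± 0.49) and Cd4 lower (-4.69 ± 0.61), both below 3 CPM in every library. The neutrophil list had 0 of 6 tested members higher and 2 lower (33.3%). The red blood cell list had 0 of 6 tested members higher and 4 lower (66.7%), led by the globin Hbb-bs (-1.0 ± 0.18). The osteoclast list had 2 of 9 tested members higher (22.2%) and 3 lower (33.3%). Acp5, the osteoclast phosphatase, was at 2.75 to 8.05 CPM against 22.2 to 70.4 CPM (log2 fold change -3.05 ± 0.42, adjusted p = 0.000385). Nfatc1, also a muscle gene, was higher (0.94 ± 0.13). The epidermis and hair list had 3 of 11 tested members higher (27.3%) and 2 lower (18.2%). Its members Krt15 and Krt5 did not pass the filter on low counts: Krt15 had 0, 0, 0 and 0 counts in Supraspinatus and 22, 18, 84 and 3 counts in Achilles, and Krt5 had 0, 0, 0 and 0 counts in Supraspinatus and 2, 0, 3 and 3 counts in Achilles. Igkc passed the threshold without Supraspinatus replicate 2 (adjusted p = 0.0282). Cd4 had a log2 fold change of -5.42 without Supraspinatus replicate 4. Cd79a and Hbb-bs were not past the threshold in a fit of all 16 libraries (adjusted p = 0.0862 to 0.111).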
